A study of Mus musculus with 12 samples.

Results

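The collagen genes of the mouse were examined on arrays of whole embryos that carried 0, 1 or 2 copies of the whirligig allele of Chd7, a gene for a chromatin remodeller. The members were every gene whose symbol has the form Col, a number, a and a number, and that a non-control probe of the array matched through its transcript accession. This gave 42 genes, measured by 61 probes, among 32496 genes or identifiers on the array. Of these 42 genes, 33 were tested, since every array of some genotype read their probe well above background, and 9 were not tested. Col12a1 and Col6a3 were not matched to a probe and are not analysed here.

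The embryos were female, at embryonic day 9.5, on a mixed C3HeB/FeJ background, and came from crosses of heterozygous parents, so that all 3 genotypes developed in Chd7Whi/+ mothers. They were separated from the yolk sac before RNA was taken. The genotypes were Chd7+/+ (wild type), Chd7Whi/+ (heterozygous) and Chd7Whi/Whi (homozygous), with 4 embryo samples on 4 one-colour arrays each, 12 in all. The study asked which genes depend on functional Chd7 when neural crest cells migrate. The allele is carried in every cell of the embryo, and the RNA came from the whole embryo, so a signal is an average over all its tissues. The samples are labelled as biological replicates, and their numbers here only name arrays. The litter of each embryo is not given in the sources used here. No probe was matched to Chd7, so the labels could not be checked against the mutated gene.

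Collagens are secreted proteins of 3 chains wound into a triple helix, and they make up much of the extracellular matrix. Fibrillar collagens form the fibrils of connective tissue, type IV collagen forms the network of basement membranes, and fibril-associated collagens with interrupted helices bind to the surface of fibrils. The chains need prolyl and lysyl hydroxylation and folding helpers inside the cell, then trimming and crosslinking outside it. In the embryo, collagens lie in basement membranes, in loose mesenchyme and around the notochord, and the neural crest migrates through such matrix.

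The region before the start of a gene is shown for the genes that the results turn on. It is also shown for the type IV pairs Col4a1 with Col4a2 and Col4a5 with Col4a6, which are transcribed away from each other. Sequences are from RefSeq, assembly GRCm38.p6, written 5′ to 3′ on the strand of the gene, and cover the 250 bases before the annotated start, except where stated. Capitals mark matches on either strand to 3 letter patterns: TATAAA (the TATA box), CCAAT (the CCAAT box) and GGGCGG (the GC box, which reads CCGCCC on the other strand).
Col3a1, chr1:45311288-45311537, plus strand: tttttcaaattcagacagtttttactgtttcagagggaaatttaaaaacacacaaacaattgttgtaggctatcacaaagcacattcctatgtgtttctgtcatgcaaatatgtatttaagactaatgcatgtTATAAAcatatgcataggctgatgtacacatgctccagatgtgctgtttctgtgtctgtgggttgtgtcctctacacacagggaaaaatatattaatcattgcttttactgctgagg
Col9a1, chr1:24177360-24177609, plus strand: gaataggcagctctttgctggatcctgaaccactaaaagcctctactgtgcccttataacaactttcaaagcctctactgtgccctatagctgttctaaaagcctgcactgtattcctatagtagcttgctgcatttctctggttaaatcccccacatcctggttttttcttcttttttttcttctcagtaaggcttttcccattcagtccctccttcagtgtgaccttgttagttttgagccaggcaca
Col4a5, chrX:141475169-141475418, plus strand: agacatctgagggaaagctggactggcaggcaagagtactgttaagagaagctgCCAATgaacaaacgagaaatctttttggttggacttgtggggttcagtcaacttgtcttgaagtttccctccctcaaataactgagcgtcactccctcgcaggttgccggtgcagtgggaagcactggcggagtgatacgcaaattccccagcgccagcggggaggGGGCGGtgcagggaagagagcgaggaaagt
Col4a6, chrX:141474077-141474326, minus strand: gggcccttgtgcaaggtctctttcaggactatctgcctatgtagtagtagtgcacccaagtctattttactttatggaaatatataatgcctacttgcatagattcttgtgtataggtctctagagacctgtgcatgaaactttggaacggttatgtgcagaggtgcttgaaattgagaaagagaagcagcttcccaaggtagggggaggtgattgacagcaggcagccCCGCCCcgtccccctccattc
Col4a1 and Col4a2, chr8:11312805-11312826, plus strand, the stretch shared by both transcripts: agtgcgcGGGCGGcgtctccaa

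Col4a1 and Col4a2 run in opposite directions and their transcripts share their first 22 bases, so that the windows from 250 bases before to 50 bases after each start overlap by 78 bases. Between the starts of Col4a5 and Col4a6 lie 1342 bases. A window was listed for 34 of the 42 members, 27 of them tested, and Col9a1 has 2 starts in the table, of which one is shown. Over the 38 windows of collagen genes, TATAAA was found in 13.2%, CCAAT in 34.2% and GGGCGG in 57.9%. Over all 32851 windows of the same length in the table the shares were 12.4%, 33.8% and 32.7%. The window of Col3a1 held TATAAA only, and the window of Col9a1 held none of the 3 patterns. A match is a run of letters and was not measured as a binding site.

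Values below are log2 of the processed spot signal minus the 75th percentile of the array, called the scaled log2 signal. A value of 0 is therefore the signal below which 75% of the probes of that array lay. Means are given ± SD with n = 4 arrays, and log2 fold changes ± the SE of the fit. A gene passed the test when its adjusted p from limma, with Benjamini-Hochberg adjustment over all 22568 genes or identifiers tested, was under 0.05. The 75th percentile was 1095 to 1721 signal units, and 69.1% to 75.7% of the probes on an array were well above background. The arrays lay on 3 slides, each with all 3 genotypes, but position 1 of the slides held 3 arrays that were all wild type.

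In homozygous embryos 3 of the 33 tested collagen genes passed the test against wild type. Col3a1, the chain of the type III fibrils of soft connective tissue, and Col9a1, a chain of the fibril-associated type IX collagen of cartilage, fell. Col4a2, a chain of the common type IV network of basement membranes, rose. Of all genes tested 1.35% passed in either direction, 0.487% higher and 0.864% lower. The median log2 fold change of the 33 genes was 0.03, against 0.02 for all genes tested, with 19 values above 0 and 14 below, and they ranged from -1.54 to 0.65. At an unadjusted p under 0.05, 14 collagen genes differed, 7 higher and 7 lower, where 17.0% of all genes did. The homozygous and wild-type arrays did not overlap in 11 collagen genes, 5 higher and 6 lower, where this was so for 14.1% of all genes. The collagen genes had no common direction in the homozygotes.

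**Figure D1:**
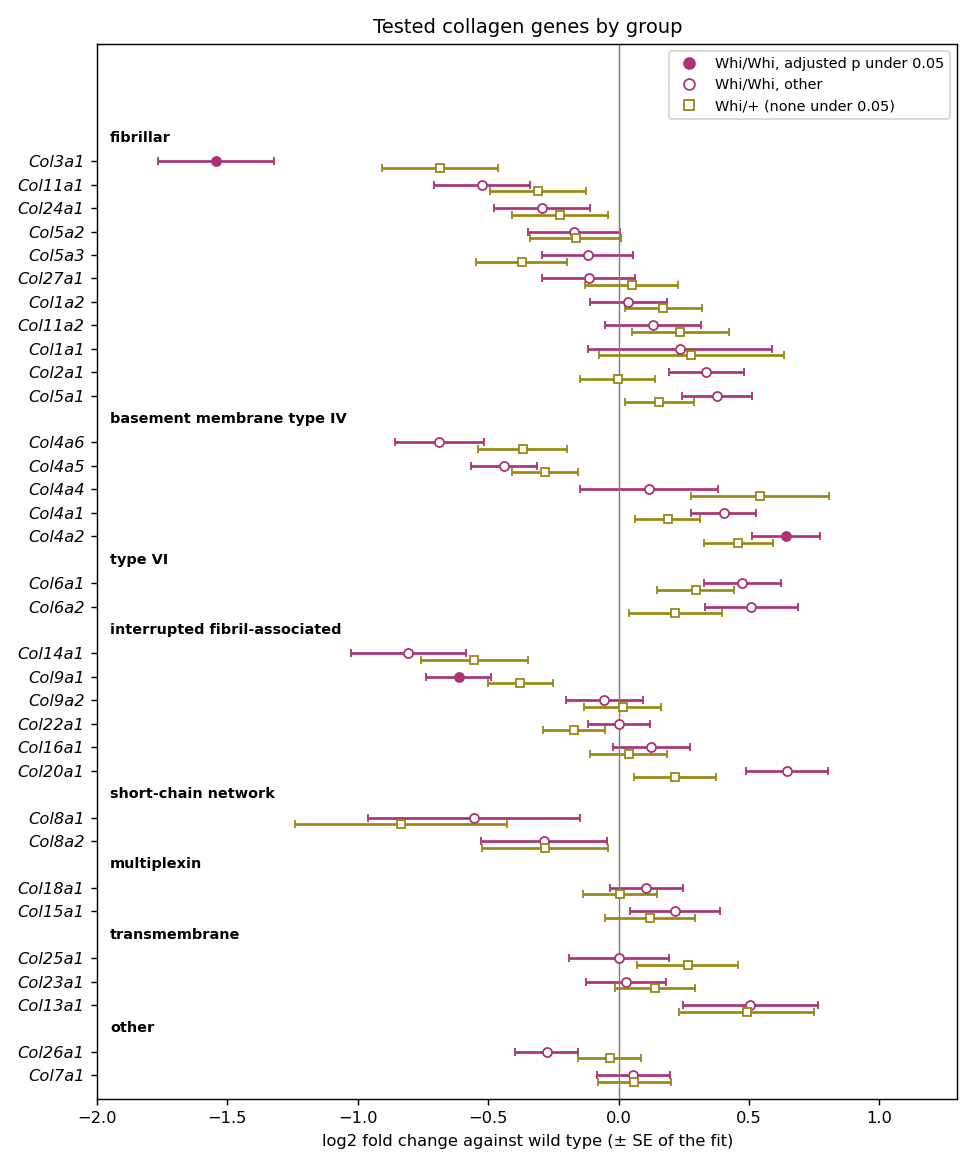
Log2 fold change against wild type (horizontal axis) of the 33 tested collagen genes, grouped by structural class, with circles for homozygous and squares for heterozygous embryos and bars for the SE of the fit. Col3a1 stands at -1.54 and Col4a2 at 0.64 in homozygotes, filled circles mark the 3 genes that passed the test, and most other genes lie between -0.5 and 0.5.

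Col3a1 had scaled log2 signals of 2.69, 2.37, 2.12 and 2.58 on the wild-type arrays, of 1.94, 2.28, 1.18 and 1.62 on the heterozygous arrays and of 0.77, 0.93, 0.62 and 1.26 on the homozygous arrays. Every homozygous array lay below every wild-type array, and the heterozygous arrays overlapped with both other genotypes. The means were 2.44 ± 0.25, 1.75 ± 0.47 and 0.90 ± 0.27 (SD, n = 4 each). In homozygotes Col3a1 fell by 1.54 ± 0.22 on the log2 scale, or 2.92-fold, with an adjusted p of 0.00632 in the limma fit. Within the 3 slides the differences were -1.92, -1.32 and -1.64, all in that direction. In an embryo extract, fewer cells of a type and less RNA per cell cannot be told apart.

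Mesenchyme markers lay lower in the same embryos. All 4 markers listed (Twist1, Prrx1, Pdgfra and Pdgfrb) had a negative log2 fold change in homozygotes, where 53.5% of all genes had a positive one. Of the 4, 2 fell, against 0.864% of all genes: Prrx1, a limb and facial mesenchyme factor, by 1.82 ± 0.30 (adjusted p = 0.0129) and Twist1, a factor of the same tissues, by 0.93 ± 0.12 (adjusted p = 0.00393). Pdgfra gave -0.20 ± 0.13 (adjusted p = 0.440) and Pdgfrb -0.35 ± 0.15 (adjusted p = 0.274), and neither passed. The list was chosen with earlier results of these data known, so it is not independent of them. Each of the 4 markers was well above background on all arrays. The summed linear signal of the 4, in multiples of the 75th percentile of the array, was 7.10 to 8.32 in wild type, 5.11 to 7.12 in heterozygotes and 4.37 to 5.06 in homozygotes. Its part in the Col3a1 result was not tested. Markers of the sclerotome, which forms the vertebrae, were below wild type for 4 of 5 genes. Of these 5 markers 0 passed the limma test and 2, Pax1 and Pax9, had an unadjusted p under 0.05, where 17.0% of all genes did. Their summed signal overlapped, at 2.02 to 2.84 in wild type and 1.48 to 2.32 in homozygotes.

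Col9a1 had signals of 0.55, 0.51, 0.46 and 0.65 in wild type, 0.36, 0.26, 0.08 and -0.03 in heterozygotes and 0.17, -0.36, -0.07 and -0.02 in homozygotes. All wild-type arrays lay above all arrays of both other genotypes. In homozygotes Col9a1 fell by 0.61 ± 0.12 on the log2 scale, or 1.53-fold (adjusted p = 0.0364), and within the slides the differences were -0.39, -0.85 and -0.70. Its second, dimmer probe gave 0.01 ± 0.21 for the same comparison, so the decrease was measured by one of its 2 probes. Whether the 2 probes read different transcripts was not tested. Col9a2, another chain of type IX collagen, gave -0.05 ± 0.15, and Col9a3 was at background level on all arrays.

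Col4a2 had signals of 0.73, 0.69, 1.10 and 0.59 in wild type, 1.24, 0.94, 1.45 and 1.32 in heterozygotes and 1.49, 1.40, 1.42 and 1.37 in homozygotes. The homozygous arrays lay above all wild-type arrays with an SD of 0.05, while wild-type replicate 3 stood above the other wild-type arrays. In homozygotes Col4a2 rose by 0.64 ± 0.13, or 1.56-fold (adjusted p = 0.0387), with differences of 0.76, 0.51 and 0.81 within the slides.

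**Figure D2:**
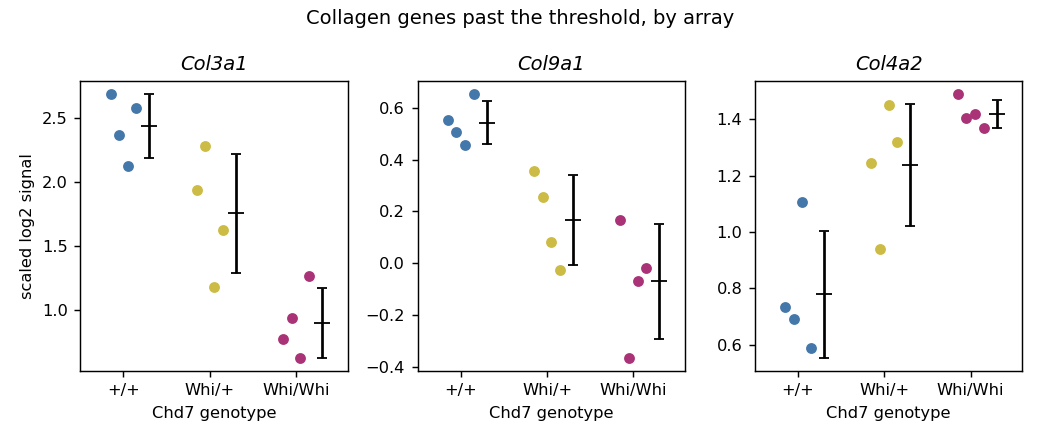
Scaled log2 signal (vertical axis, with its own range in each panel) of Col3a1, Col9a1 and Col4a2 on the 12 arrays by Chd7 genotype, where points are arrays and bars show the mean ± SD of 4 arrays. The homozygous points lie below the wild-type points for Col3a1 and Col9a1 and above them for Col4a2.

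The 3 calls differed in how far they rested on single arrays and settings. Col3a1 passed without any 1 of the 12 arrays, with values from -1.67 to -1.45 and adjusted p from 0.00322 to 0.0310. Col4a2 passed in 4 and Col9a1 in 5 of those 12 fits. Without wild-type replicate 1, 2 or 4 or homozygous replicate 2, 3 or 4, only Col3a1 of these 3 genes passed. Without wild-type replicate 3 Col9a1 was lost, at -0.64 (adjusted p = 0.0579). Col4a2 was lost without homozygous replicate 1, at 0.62 (adjusted p = 0.100), and without heterozygous replicate 1, at 0.64 (adjusted p = 0.0538). With the array position as a block no collagen gene passed, and the values were -1.43 for Col3a1, -0.41 for Col9a1 and 0.35 for Col4a2. In that fit only wild-type replicate 3 shared a position with homozygous arrays. With the first number of the sample title as a fixed block none passed either, at -1.56 for Col3a1 (adjusted p = 0.121), -0.73 for Col9a1 (adjusted p = 0.191) and 0.62 for Col4a2 (adjusted p = 0.381).

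**Figure D3:**
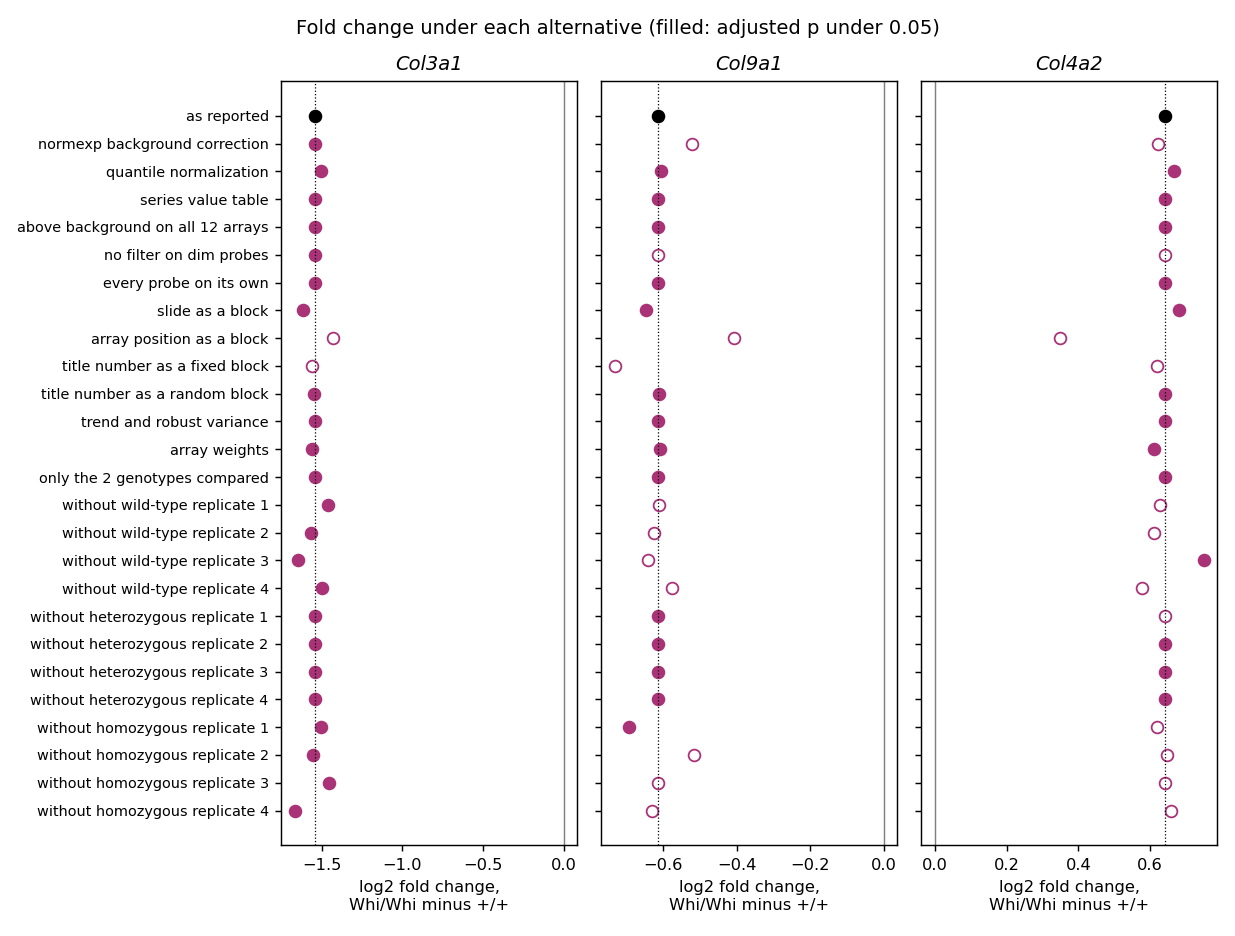
Log2 fold change, homozygous minus wild type, of Col3a1, Col9a1 and Col4a2 (horizontal axes) as reported and under 25 alternatives, 12 of which leave out 1 array each, with filled points for an adjusted p under 0.05. Col3a1 is filled in 23 of the 25 alternatives, Col9a1 in 14 and Col4a2 in 13, and every point keeps its side of 0.

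Among the 11 fibrillar collagens, all tested, 1 fell (Col3a1) and 0 rose in the limma fit, where 1.35% of all genes passed. An unadjusted p under 0.05 was found for 4 of them, against 17.0% of all genes. The log2 fold changes of the 11 genes ran from -1.54 to 0.38 with a median of -0.11. Col11a1, a minor chain of cartilage fibrils, had signals of -1.42, -1.97, -2.07 and -1.85 in wild type, -2.01, -1.83, -2.25 and -2.46 in heterozygotes and -2.64, -2.52, -2.15 and -2.10 in homozygotes. The homozygous arrays were all below the wild-type arrays, the nearest at -2.10 against -2.07, and the difference of -0.52 ± 0.18 did not pass (adjusted p = 0.198). Col5a1, a chain of the type V collagen that starts fibrils, gave 0.38 ± 0.13 (adjusted p = 0.199). Col2a1, the main collagen of cartilage and of the notochord sheath, gave 0.34 ± 0.14 (adjusted p = 0.266). Both overlapped between the genotypes.

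Col3a1 was set beside other fibrillar chains, chosen after their values were seen. Col5a2, its neighbour on chromosome 1, had a mean of -1.32 ± 0.10 in wild type and -1.49 ± 0.15 in homozygotes (SD, n = 4), a difference of -0.17 ± 0.18 (adjusted p = 0.646). Col1a2, a chain of type I collagen, gave 0.04 ± 0.15 (adjusted p = 0.921). Col1a1, its partner chain, gave 0.23 ± 0.35 (adjusted p = 0.765), and its homozygous arrays were spread from -0.36 in replicate 3 to 1.57 in replicate 1. That range took in all 4 wild-type values, 0.41 to 0.69. None of these chains passed the test, and a difference between their changes and that of Col3a1 was not tested.

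Type IV collagen was measured by 6 genes, 5 of them tested, of which 1 rose (Col4a2) and 0 fell, where 1.35% of all genes passed. In 4 of the 5 tested genes the homozygous and wild-type arrays did not overlap, 2 higher and 2 lower, against 14.1% of all genes. These were the pairs Col4a1 with Col4a2 and Col4a5 with Col4a6, each transcribed in opposite directions from neighbouring starts. Of a further neighbouring pair, Col4a3 and Col4a4, only Col4a4 was tested, and its homozygous and wild-type arrays overlapped. Col4a1, the partner chain of Col4a2, had signals of 1.37, 1.32, 1.43 and 1.34 in wild type, 1.61, 1.20, 1.69 and 1.72 in heterozygotes and 1.98, 1.77, 1.75 and 1.58 in homozygotes. The homozygous arrays were all above the wild-type arrays, and the difference of 0.40 ± 0.12 did not pass (adjusted p = 0.151).

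Col4a5 and Col4a6 lie next to each other on the X chromosome and encode chains of the type IV networks of specialised basement membranes. Col4a5 had signals of -0.60, -0.58, -0.62 and -0.86 in wild type, -1.19, -0.78, -0.85 and -0.96 in heterozygotes and -0.93, -0.92, -1.29 and -1.28 in homozygotes. Its homozygous arrays were below all wild-type arrays, and the difference was -0.44 ± 0.13 (adjusted p = 0.128). Col4a6 had signals of -0.39, -0.28, -0.04 and -0.59 in wild type, -0.86, -0.46, -0.71 and -0.75 in heterozygotes and -0.71, -0.72, -1.28 and -1.33 in homozygotes. The homozygous arrays again lay below, with replicates 3 and 4 the lowest in both genes, and the difference was -0.69 ± 0.17 (adjusted p = 0.0818). The second probe of Col4a6, on which all arrays were above background, gave 0.05 ± 0.18.

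Col4a4, the remaining tested chain, gave 0.12 ± 0.26, and Col4a3 was at background level on all arrays. The pairs whose arrays did not overlap thus had differences of opposite sign, positive for Col4a1 and Col4a2 and negative for Col4a5 and for the brighter Col4a6 probe. With the exception of Col4a2 none passed the test. That contrast between the pairs was noticed in these data and was not tested.

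**Figure D4:**
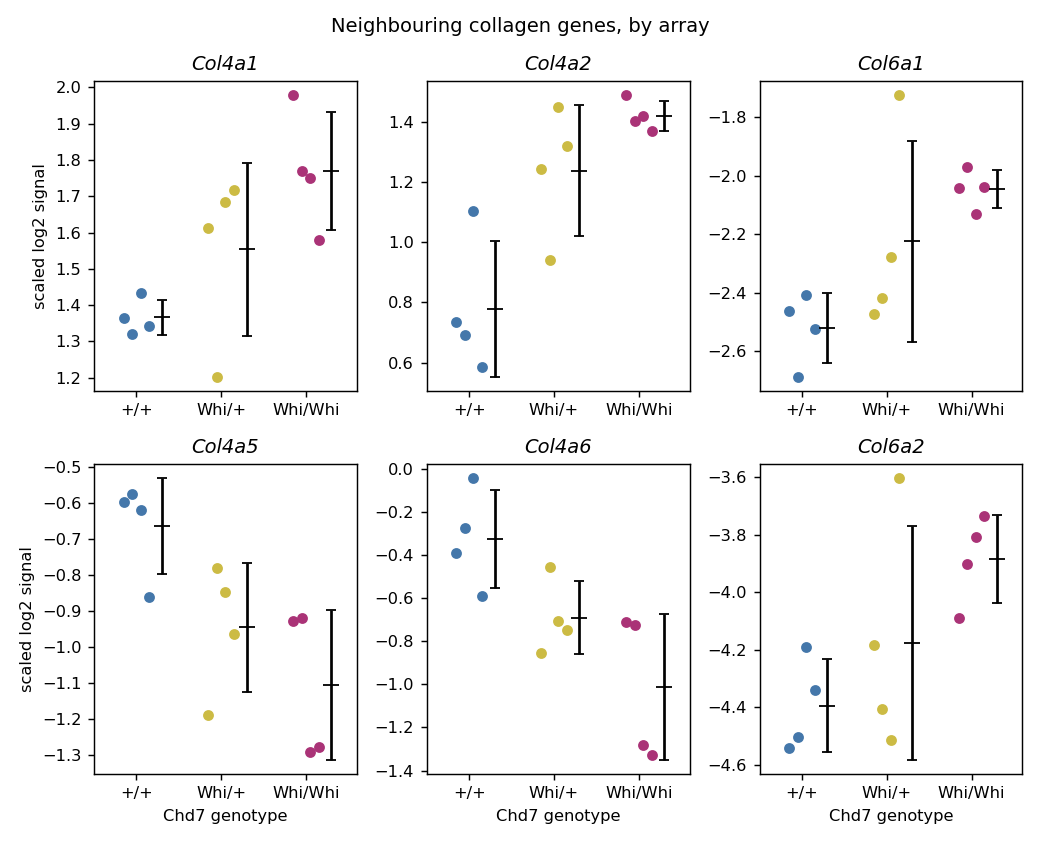
Scaled log2 signal (vertical axis, with its own range in each panel) on the 12 arrays by Chd7 genotype, for 3 neighbouring pairs of collagen genes. Points are arrays and bars show the mean ± SD of 4 arrays. These are 3 of the 4 neighbouring pairs with both genes tested. The pair not drawn, Col3a1 and Col5a2, had log2 fold changes of -1.54 and -0.17, homozygous minus wild type. Col4a6 is drawn by its brighter probe, and its other probe gave 0.05. Homozygous points lie above wild-type points for Col4a1, Col4a2, Col6a1 and Col6a2 and below them for Col4a5 and Col4a6.

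Type VI collagen forms beaded filaments next to basement membranes, and 2 of its 5 genes on the array were tested. Col6a1 had signals of -2.46, -2.69, -2.41 and -2.52 in wild type, -2.47, -2.42, -2.28 and -1.73 in heterozygotes and -2.04, -1.97, -2.13 and -2.04 in homozygotes. Col6a2 had -4.54, -4.50, -4.19 and -4.34 in wild type, -4.18, -4.41, -4.51 and -3.60 in heterozygotes and -4.09, -3.90, -3.81 and -3.74 in homozygotes. In both genes every homozygous array was above every wild-type array, and heterozygous replicate 4 was the highest of all 12 arrays. The differences were 0.47 ± 0.15 for Col6a1 (adjusted p = 0.157) and 0.51 ± 0.18 for Col6a2 (adjusted p = 0.196), and neither passed. Without heterozygous replicate 4 Col6a1 passed at the same value of 0.47, with an adjusted p of 0.0248. Over all alternatives the values ranged from 0.18 to 0.51 for Col6a1 and from 0.067 to 0.58 for Col6a2. No array read Col6a4, Col6a5 or Col6a6 well above background.

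Of 8 fibril-associated collagens with interrupted helices, 6 were tested, 1 fell (Col9a1) and 0 rose, where 1.35% of all genes passed. Col14a1, which coats fibrils in skin and tendon, had signals of -1.98, -2.41, -2.59 and -2.20 in wild type and -2.83, -2.25, -3.13 and -3.18 in heterozygotes. In homozygotes it had -3.10, -3.24 and -2.97 on 3 arrays, because the spot of replicate 3 was marked as an outlier and dropped. These 3 arrays were below all wild-type arrays, and the difference of -0.81 ± 0.22 (n = 4 and 3) did not pass (adjusted p = 0.117). The second probe of Col14a1 gave -0.18 ± 0.13.

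Col20a1 had signals of -5.61, -5.73, -5.36 and -5.73 in wild type, -5.09, -5.78, -5.37 and -5.34 in heterozygotes and -5.01, -5.25, -4.84 and -4.75 in homozygotes. Its homozygous arrays were above all wild-type arrays, but the probe was dim. The difference was 0.65 ± 0.16 (adjusted p = 0.0754), and its second probe gave 0.58 ± 0.17, but with normexp background correction the sign turned, to -0.10. Without heterozygous replicate 2 both Col14a1 and Col20a1 passed, at adjusted p of 0.0387 and 0.0407. Col16a1 gave 0.13 ± 0.15 and Col9a2 the value above, and Col22a1 lay between them. No array read Col19a1 well above background.

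The smaller classes held no gene that passed the limma test, and 1, Col26a1, had an unadjusted p under 0.05, where 17.0% of all genes did. Both short-chain network collagens tested were lower in value, Col8a2 at -0.29 ± 0.24 and Col8a1, a chain of blood vessels and of the corneal basement membrane, at -0.56 ± 0.41. The second, dimmer probe of Col8a2 gave -0.04 ± 0.17. Col8a1 was close to background: its signals were -6.41, -6.54, -6.19 and -6.08 in wild type, -8.03, -6.35, -6.65 and -7.53 in heterozygotes and -6.89, -6.24, -6.35 and -7.96 in homozygotes. It was well above background on 4 wild-type, 1 heterozygous and 3 homozygous arrays, and the genotypes overlapped. Col8a1 thus entered the test through its wild-type arrays alone, the group with its highest mean, so the filter favoured a decrease. The multiplexins Col15a1 and Col18a1, basement membrane collagens that carry heparan or chondroitin sulfate, gave 0.22 ± 0.17 and 0.11 ± 0.14. Their signs turned under other settings, to -0.29 for Col15a1 with normexp and to -0.10 for Col18a1 with the array position as a block.

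The transmembrane collagens are anchored in the cell membrane, and 3 of 4 were tested. Col13a1, which is found at cell adhesions and at the neuromuscular junction, had signals of -5.82, -6.02, -4.89 and -6.15 in wild type, -4.90, -5.71, -5.17 and -5.12 in heterozygotes and -5.00, -5.48, -5.31 and -5.06 in homozygotes. Wild-type replicate 3 was the highest of its group, so the genotypes overlapped, and the difference was 0.51 ± 0.26 (adjusted p = 0.344). It turned to -0.19 with normexp and to -0.27 with the array position as a block. Col23a1 gave 0.03 ± 0.15, and Col25a1 had equal means in wild type and homozygotes, -5.10 in both. Of the remaining genes, Col26a1 gave -0.28 ± 0.12 (adjusted p = 0.280) and Col7a1, the anchoring fibril collagen of skin, gave 0.06 ± 0.14.

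In heterozygous embryos 0 of the 33 collagen genes passed the limma test against wild type, where 0.00886% of all genes did. At an unadjusted p under 0.05, 5 differed, 1 higher and 4 lower, against 15.4% of all genes, and 1 gene did not overlap with wild type, against 6.66%. That gene was Col9a1, at -0.38 ± 0.12 (adjusted p = 0.244) by its brighter probe. This value ranged from -0.45 to -0.049 over the alternatives. The second, dimmer probe of Col9a1 gave the opposite sign for the same comparison, 0.42 ± 0.21. Col3a1 gave -0.69 ± 0.22 (adjusted p = 0.243), with heterozygous replicate 2 inside the wild-type range and replicate 3 the lowest. Col4a2 gave 0.46 ± 0.13 (adjusted p = 0.237), and its heterozygous replicate 2 lay inside the wild-type range. The median over the collagen genes was 0.04, and over all genes tested 0.04. Heterozygous replicate 1 had the lowest signal of all 12 arrays for each of the 7 heart muscle markers, with a summed linear signal of 8.71 against 131 to 197 in wild type. Without it 0 collagen genes passed as well, and Col3a1 gave -0.75, Col9a1 -0.44 and Col4a2 0.46. Heterozygous and homozygous embryos were compared with the same wild-type arrays, so both sets of values share the error of those arrays.

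Between homozygous and heterozygous embryos 0 collagen genes passed the limma test, where 0.0133% of all genes did. At an unadjusted p under 0.05, 3 differed, 2 higher and 1 lower, against 6.00% of all genes. The arrays of the 2 genotypes did not separate for any collagen gene, where 2.98% of all genes did not overlap. Col3a1 was the lowest at -0.86 ± 0.22 (adjusted p = 0.465), and Col20a1 the highest at 0.43 ± 0.16 (adjusted p = 0.728). The second probe of Col20a1 gave 0.10 ± 0.17 for this comparison. A p that misses the threshold does not show that the genotypes had the same level.

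Genes that act with collagen were taken from 7 lists, 91 genes of which 89 were on the array and 79 tested. In homozygotes 1 of the 79 passed, where 1.35% of all genes did, and 17 had an unadjusted p under 0.05, against 17.0% of all genes. The one that passed was Loxl1, a lysyl oxidase that crosslinks elastin and collagen. Loxl1 had signals of -2.56, -2.57, -2.30 and -2.72 in wild type, -2.47, -2.44, -1.97 and -2.19 in heterozygotes and -1.16, -1.61, -2.05 and -1.88 in homozygotes. The homozygous arrays were all above the wild-type arrays, with replicate 1 the highest. Loxl1 rose by 0.86 ± 0.19, at an adjusted p of 0.0465. The call was lost in most fits without 1 array, as with quantile normalization, at 0.83 (adjusted p = 0.0552).

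The 22 genes of chain folding and modification were all tested and 0 passed the limma test, with 2 at an unadjusted p under 0.05, where 17.0% of all genes were. Values above 0 were found for 17 of the 22 genes and for 53.5% of all genes tested. Colgalt1, which adds galactose to hydroxylysine, had 0.21, 0.70, 0.75 and 0.48 in wild type and 0.91, 1.01, 0.95 and 1.02 in homozygotes. These arrays did not overlap, and the difference of 0.44 ± 0.13 did not pass (adjusted p = 0.138). Colgalt2, a second enzyme of that kind, gave -0.35 ± 0.15. Besides Loxl1, 10 other processing genes were tested, of which Pcolce2, an enhancer of propeptide cleavage, had the smallest p at -0.24 ± 0.13.

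Of the 10 listed collagen receptors 7 were tested, and the 2 with the smallest p were both lower in value. Ddr2, a receptor tyrosine kinase that binds fibrillar collagen, had means of -1.10 ± 0.10 in wild type, -1.46 ± 0.32 in heterozygotes and -1.68 ± 0.26 in homozygotes (SD, n = 4 each). The homozygous arrays were below all wild-type arrays, with a difference of -0.58 ± 0.17 (adjusted p = 0.122). Itga11, an integrin chain for fibrillar collagen on mesenchymal cells, gave -0.66 ± 0.25 (adjusted p = 0.234), with overlap. Among 7 tested genes of collagen breakdown the smallest p were those of Mmp9 at 0.81 ± 0.31 (adjusted p = 0.225) and Mmp14 at 0.58 ± 0.24 (adjusted p = 0.258), both proteases of the matrix. Neither passed, and both signs depended on the processing: Mmp9, above background on 2 of 4 wild-type arrays, gave -0.19 with normexp, and Mmp14 gave -0.26 with the array position as a block. Mmp9 entered the test through its homozygous arrays alone, so the filter favoured an increase.

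Among the 14 listed matrix proteins that bind collagen, 10 were tested and 0 passed the limma test. An unadjusted p under 0.05 was found for 5, 2 higher and 3 lower, against 17.0% of all genes. Of the 10 values 5 were above 0 and 5 below. Lum, a small proteoglycan that binds collagen fibrils, had 1.02, 1.25, 1.08 and 1.20 in wild type, 0.31, 0.99, -0.05 and 1.20 in heterozygotes and 0.37, -0.08, -1.61 and -0.17 in homozygotes. Its homozygous arrays were below all wild-type arrays, with replicate 3 far below the others, and the difference of -1.51 ± 0.38 did not pass (adjusted p = 0.0822). Matn3, a cartilage matrix protein, gave -0.39 ± 0.13 (adjusted p = 0.190).

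All 15 laminins and other basement membrane partners were tested and 0 passed the limma test, with 5 at an unadjusted p under 0.05, against 17.0% of all genes, and 11 values above 0, against 53.5% of all genes. Lama4, a laminin chain of blood vessels, had -0.68, -0.51, -0.83 and -0.84 in wild type, -1.07, -0.73, -0.52 and -0.64 in heterozygotes and -0.21, -0.29, -0.02 and -0.33 in homozygotes. Its homozygous arrays were above all others, and the difference was 0.50 ± 0.13 (adjusted p = 0.0916). Lama5 gave 0.39 ± 0.14 (adjusted p = 0.193). The 7 transcription factors of collagen genes were tested and 0 passed in the limma fit, with 0 at an unadjusted p under 0.05. Creb3l1 gave 0.53 ± 0.26 and Scx 0.21 ± 0.11 (adjusted p = 0.332 for both), and Sox9, which drives the collagens of cartilage and is named after its value was seen, gave -0.15 ± 0.12. Of 6 endothelial markers 0 passed the limma test and 2 had an unadjusted p under 0.05, where 17.0% of all genes did. These markers had 3 values above 0 and 3 below, with summed linear signals of 3.57 to 4.15 in wild type and 3.54 to 4.68 in homozygotes. Their part in the values of Lama4, Col4a1 and Col4a2 was not tested.

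**Figure D5:**
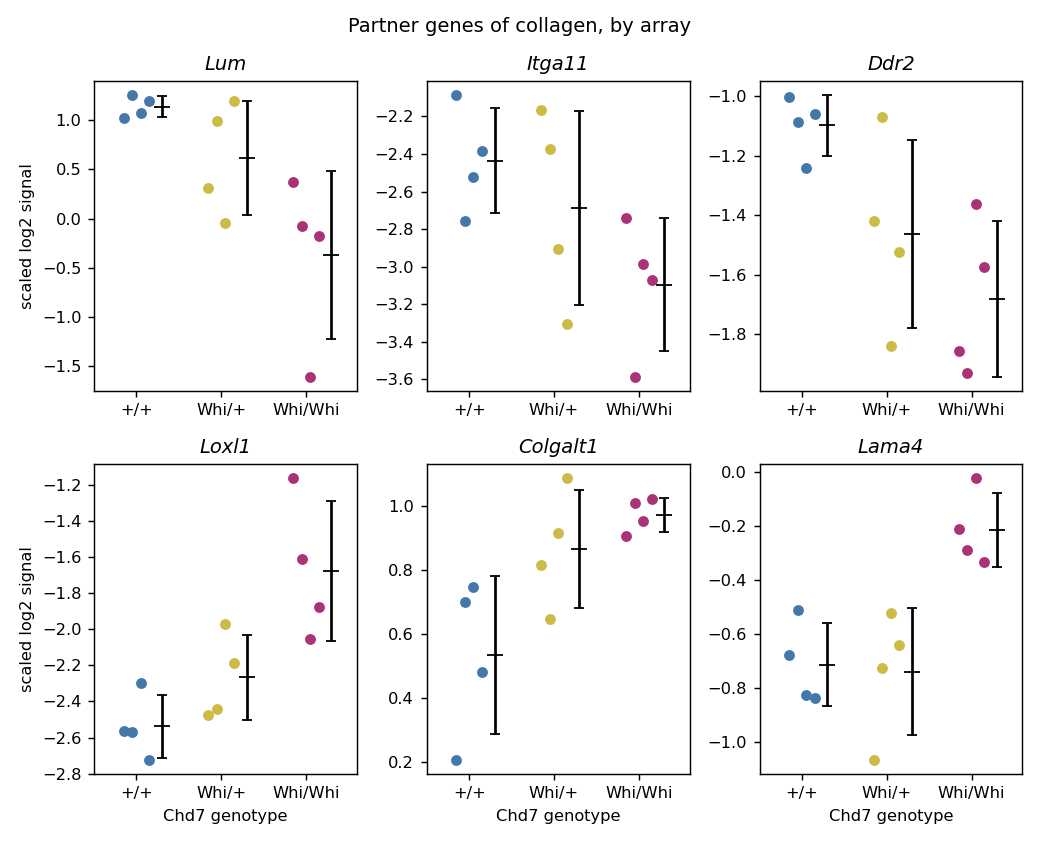
Scaled log2 signal (vertical axis, with its own range in each panel) of 6 genes that act with collagen on the 12 arrays by Chd7 genotype, with points for arrays and bars for the mean ± SD of 4 arrays. Of these Loxl1 alone passed the test, homozygous points lie below wild-type points for Lum and Ddr2 and above them for Loxl1, Colgalt1 and Lama4, and Itga11 overlaps.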

How the data were processed

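RNA of 12 whole embryos was measured on one-colour (Cy3) Agilent arrays. The submitters' processing notes name limma, and Agilent Feature Extraction 10.7.3.1 for reading the spots. Intensity was taken from the deposited processed signals, which per the file headers carry a background correction made within each array but no scaling between arrays. The deposited value table held the same intensity values.

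Here, log2 of each intensity minus the 75th percentile of its array was computed, without 1377 control spots and without outlier spots. Spots of a probe were averaged, and probes were named through RefSeq transcripts (GRCm38.p6). Each gene was represented by its brightest probe. A model with one mean per genotype (lmFit and eBayes of limma 3.58.1, R 4.3.3) took in all 12 arrays, with Benjamini-Hochberg adjustment over 22568 genes or identifiers and a threshold of 0.05. The fit was tested on simulated data drawn independently for each array, without effects of slide, array position or litter. That test therefore cannot show how such effects would change the calls. The p-values set each genotype difference against the spread between these samples, which the model takes as independent. Differences between litters or array positions are not part of that model.

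The members, gene lists and tests were chosen with earlier results of these data known. Named with all arrays are genes past the threshold and the 4 largest other changes each way, then up to 2 others per class, and 2 genes per partner list, by smallest p. Col4a1, Col4a5 and some partner genes are given with all arrays beyond that rule. Alternatives were other background correction (normexp on the median spot signal, offset 50), scaling, filters, probes, value source, variance model and samples, array weights, slide, array position and title number as blocks, and leaving out each array. The plots were made in matplotlib 3.10.9. The number of arrays limits the precision.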

Additional observations from a re-analysis of the deposited data

Results flagged for a closer look

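In 98 sets of 4 arrays of a genotype, 1 array stood far from the other 3 in 5 sets by Dixon's criterion, and chance gives about 1 in 20. All 5 were the lowest array of their set. Col4a5 was at -0.86 on wild-type replicate 4, the nearest of the other wild-type arrays being at -0.62. Col7a1 was at -1.51 on the same array, with the others at -1.30 to -1.29. Col5a1 was at 0.43 on homozygous replicate 4, with the others at 0.73 to 0.78. Col24a1, a fibrillar chain with a dim probe, was at -5.02 on wild-type replicate 3, with the others at -4.54 to -4.49, and at -5.44 on heterozygous replicate 4, with the others at -4.72 to -4.64.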

How the results depend on the processing

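The number of collagen genes past the threshold in homozygotes, 3 as reported, was 1 with normexp background correction and 1 with no filter on dim probes (Col3a1 each time), 0 with the array position as a block, 5 with array weights and 1 to 5 when 1 array was left out. The title numbers shared by some samples have no stated meaning and were not taken as pairs. With the title number as a fixed block (replicate block) it was 0, and with it as a random block 3. In heterozygotes against wild type, and in homozygotes against heterozygotes, it stayed 0 under all 25 alternatives. Normexp moved the median of all genes, homozygous minus wild type, from 0.02 to -0.10. Over 49 single-gene results and 1221 alternatives, 1143 kept direction and side of the threshold, 42 lost the call, 6 gained it and 30 turned sign. With normexp these were Col20a1 (-0.10), Col13a1 (-0.19), Col15a1 (-0.29), Col25a1 (-0.33), Col4a4 (-0.14) and Mmp9 (-0.19). With the array position as a block they were Col13a1 (-0.27), Col18a1 (-0.10), Col25a1 (-0.35), Col1a2 (-0.022), Mmp14 (-0.26) and Sox9 (0.15). With the slide as a block they were Col25a1 (-0.057) and Col1a2 (-0.026), with quantile normalization Col25a1 (-0.070), and with the title number as a fixed block Col9a2 (0.0034), Col1a1 (-0.050) and Col1a2 (-0.030). When 1 array was left out, the values of genes that turned sign ranged from -0.11 to 0.13 for Col23a1, -0.037 to 0.19 for Col7a1, -0.13 to 0.070 for Col9a2, -0.10 to 0.17 for Col25a1, -0.015 to 0.63 for Col1a1, -0.097 to 0.11 for Col1a2 and -0.084 to 0.32 for Col4a4. None of these genes had passed the test, and the cause was not tested. Dim probes such as Col8a1, Col13a1, Col15a1 and Col20a1 limit what the signal over background can show.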

Other observations

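Col10a1, the collagen of hypertrophic cartilage, was not tested, yet its signal was -3.64 on homozygous replicate 4 and well above background there. It was -6.94 on wild-type replicate 1, the only other array on which it was above background, and between -9.11 and -8.10 on the remaining 10 arrays. Col17a1, a collagen of the epidermal anchoring complex, was above background on 3 wild-type arrays, 0 heterozygous arrays and 1 homozygous array, with signals from -6.95 to -6.24 in wild type and from -7.30 to -5.78 in homozygotes. Col28a1 was above background on 1 array, wild-type replicate 1, at -6.47, and lay between -9.52 and -8.27 on the others. The 7 markers of the visceral endoderm and liver bud all had a positive log2 fold change in homozygotes, as did 53.5% of all genes tested. Of these markers 0 passed the limma test and 0 had an unadjusted p under 0.05. Their summed linear signal was 5.91 to 30.1 in wild type and 4.19 to 71.3 in homozygotes. Mrc1, a macrophage marker, was higher in homozygotes by 1.35 ± 0.29 on the log2 scale (adjusted p = 0.0457). It was the one called of 3 tested macrophage markers, where 1.35% of all genes passed. Csf1r gave 0.11 ± 0.12 (adjusted p = 0.660) and C1qb -0.08 ± 0.24 (adjusted p = 0.887), so the tested markers had no common direction.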
